A study of Rattus norvegicus with 8 samples.

Results

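The 39 genes described here are those of the transcription factor NRF2, of glutathione and of the glutathione transferases in rat liver, chosen by symbol out of the 30562 genes of a table of read counts. Each symbol was found once, and 38 of the 39 genes were among the 16591 genes with enough reads to be tested. Livers of 8 rats were sequenced with paired reads of 150 bp, 2 per group out of 5 treated. The labels describe them as male Wistar rats that weighed 160 g when treatment began and give no age. Control rats received vehicle only. HCB rats received hexachlorobenzene, a persistent chlorinated fungicide that damages the liver, at 100 mg/kg by gavage 3 times a week for 30 days. Atorvastatin rats drank this inhibitor of cholesterol synthesis in water over the same 30 days, and the rats of the combination received both. All rats were killed on day 37. The label gives the atorvastatin dose as 5 mg/kg per day, while 5 mg in the 20 mL that each rat received daily would be 31.25 mg/kg for a rat of 160 g.

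NRF2, the product of Nfe2l2, is a transcription factor that KEAP1 holds in the cytoplasm and hands to a ubiquitin ligase for destruction. Electrophiles and oxidants modify cysteines of KEAP1, NRF2 then accumulates, pairs with a small MAF protein and binds antioxidant response elements near genes of detoxification. Glutathione, a tripeptide made from glutamate, cysteine and glycine, is the main soluble thiol of the hepatocyte, and the glutathione transferases couple it to reactive compounds for export. Rat liver holds large amounts of the alpha and mu classes of these enzymes, whereas the pi class enzyme Gstp1 is low in normal hepatocytes and is used as a marker of preneoplastic foci.

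Assigned reads ranged from 29.4 M to 52.0 M per library. The 39 genes took 0.451% to 0.491% of the assigned reads in the 4 libraries labelled control or atorvastatin, and 1.09% to 1.35% in the 4 labelled HCB or combination, called the HCB-labelled libraries below. These 2 sets of libraries also differed in ways that exposure labels do not state. The summed level of 4 Y-linked genes was 0.900 to 1.90 CPM (counts scaled to the normalised library size) in the unexposed libraries and 135 to 217 CPM in the HCB-labelled ones, although the labels call every rat male. A list of 5 fetal liver genes (Afp, H19, Igf2, Dlk1 and Gpc3) summed to 37451 to 51247 CPM in the unexposed libraries and to 148 to 333 CPM in the HCB-labelled ones, and all 5 fell in both HCB comparisons. The 7 neutrophil markers summed to 129 to 218 against 0.401 to 3.17 CPM, with Ltf at 0 in every library, and the 7 erythroid markers to 1941 to 5040 against 299 to 1304 CPM. Hepatocyte markers, 6 genes led by Alb, summed to 51566 to 111774 against 94885 to 140208 CPM. Of them 3 rose and 1 fell in HCB versus control (edgeR adjusted p under 0.05), and 2 rose and 1 fell in the combination versus atorvastatin. Over all genes tested, 13.05% rose and 13.9% fell in the first of these comparisons, and 12.6% and 14.99% in the second. The 5 cholangiocyte markers summed to 11.7 to 19.2 against 12.6 to 20.5 CPM. The 6 Kupffer cell markers summed to 173 to 307 against 221 to 381 CPM. Both sums overlapped, but single markers went both ways. In each of these lists 2 rose and 1 fell in HCB versus control. In the combination versus atorvastatin 1 cholangiocyte marker fell and 2 Kupffer cell markers rose. The 5 endothelial markers summed to 621 to 781 against 529 to 631 CPM, with 1 higher and 1 lower in each of the comparisons. The 6 stellate cell markers summed to 618 to 2816 against 408 to 571 CPM. Atorvastatin replicate 2 alone gave the 2816 CPM, and the other unexposed libraries lay at 618 to 666 CPM. The share of reads outside annotated exons was 15.3% to 34.04% in the unexposed libraries and 7.46% to 11.4% in the HCB-labelled ones. The part of these differences in the results below was not tested, and they cannot be told apart from HCB exposure, so every direction given is between libraries labelled exposed and libraries labelled unexposed. In bulk liver, fewer cells of a type and less RNA per cell cannot be told apart.

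Most of the 38 tested genes were higher in the HCB-labelled libraries, whether or not atorvastatin was given. Between HCB and control, edgeR's quasi-likelihood test (adjusted p under 0.05, Benjamini-Hochberg over all genes) called 29 higher and 1 lower, or 78.9% of the 38 genes, where 26.9% of all genes tested were called (13.05% higher and 13.9% lower). In the combination versus atorvastatin it called 27 higher and 1 lower, or 73.7%, where the background was 27.6% (12.6% higher and 14.99% lower). The median log2 change of the 38 genes was 1.55 and 1.32 in these comparisons, and that of all genes −0.09 and −0.11. These comparisons share no library, and 27 genes were called higher in both, against 9.64% of all genes. The alpha class gene Gsta3 was called lower in both, as were 10.2% of all genes. Among all 39 genes, the 4 HCB-labelled libraries all lay above the other 4 for 30 and all below for 2, with overlap for 7, and 46.8% of all genes tested showed no overlap (21.8% above, 24.97% below). Without Control replicate 1 the count higher in HCB versus control was 18, while that over all genes went from 2165 to 890. Without Atorvastatin replicate 1 the count higher in the combination versus atorvastatin was 18, while that over all genes went from 2084 to 1089. With counts scaled by library size alone, without TMM factors, the median change of all genes moved to −0.53 and −0.73 and that of the 38 genes to 1.12 and 0.72, with 21 and 18 called higher. Of all genes, 1041 were then called higher and 3270 lower in the first comparison (2165 and 2301 with TMM), and 821 and 4706 in the second (2084 and 2487 with TMM). The 2 libraries with most reads outside exons, named below as a pair left out together, were Control replicate 1 and Atorvastatin replicate 1.

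**Figure D1:**
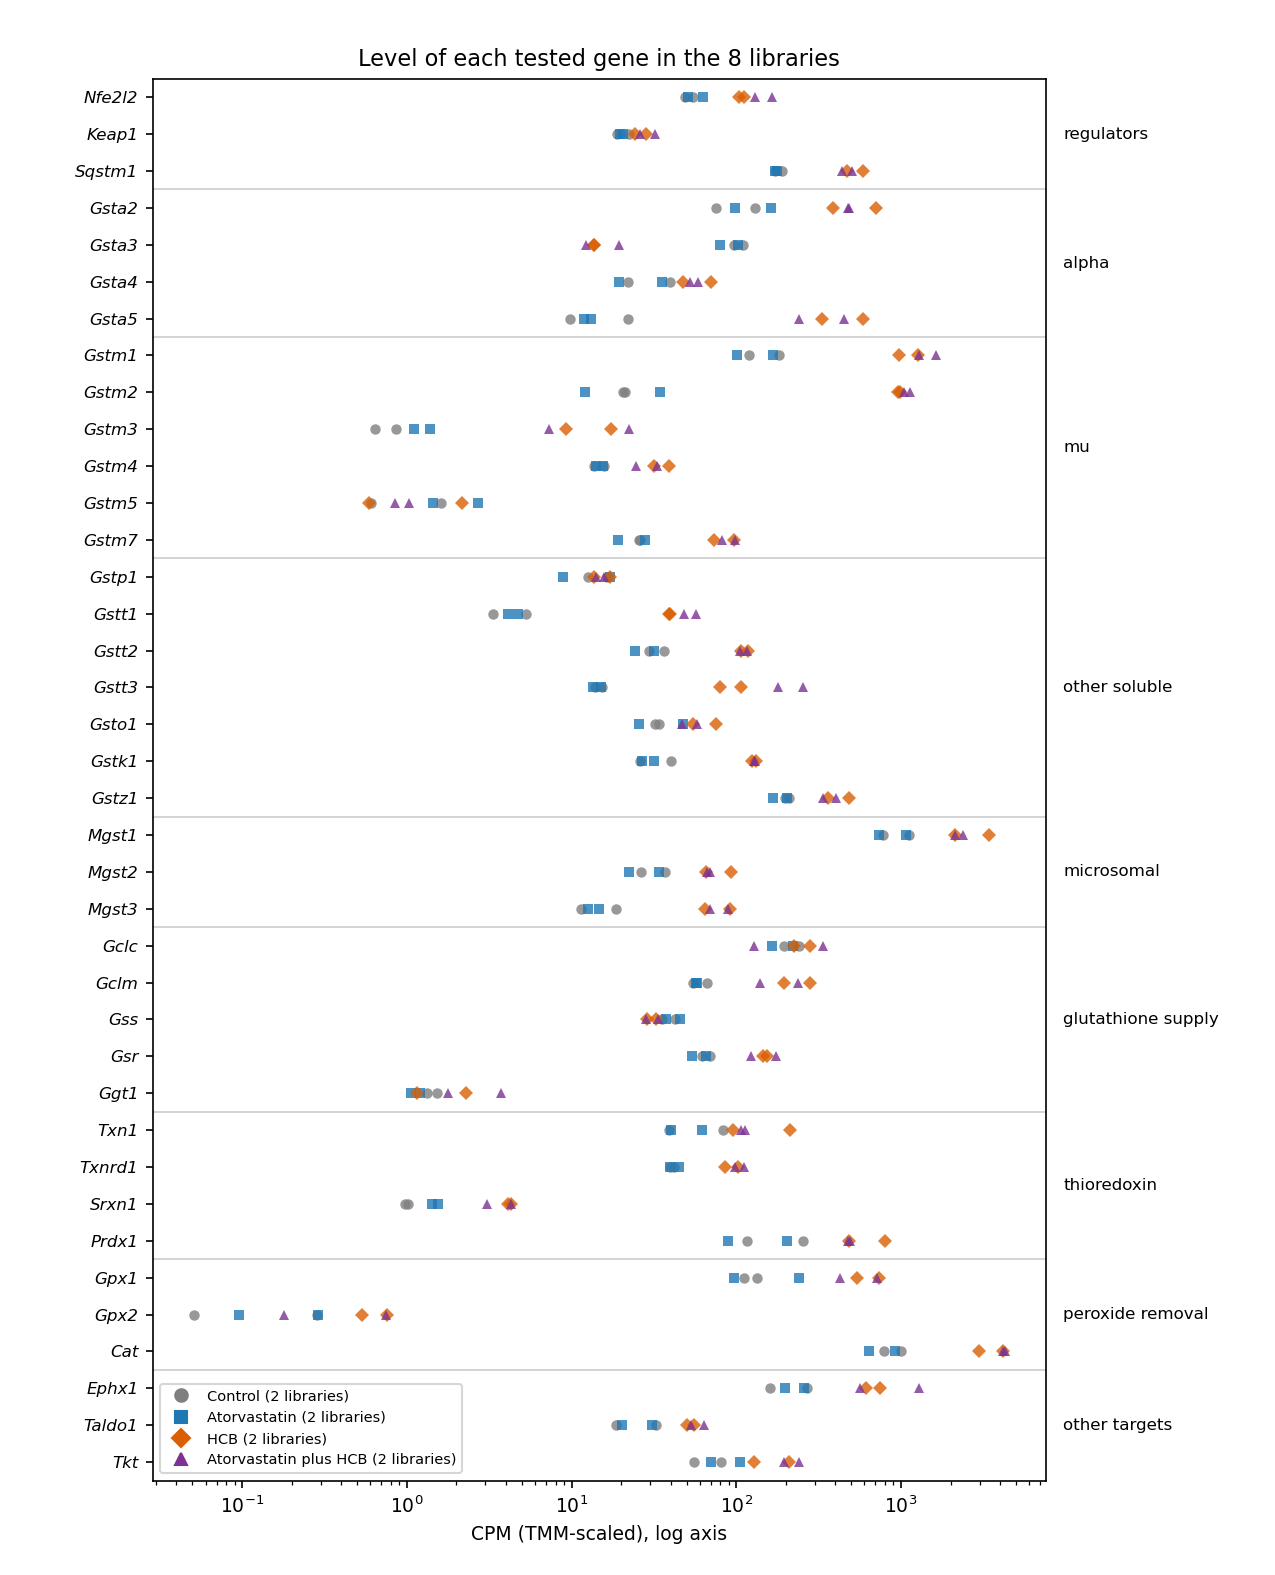
Level of each of the 38 tested genes in the 8 libraries, in CPM on a log axis, grouped by role, with 1 point per library and colour and shape for the group. The HCB and combination points lie to the right of the control and atorvastatin points for most genes, and to the left for Gsta3 and Gss.

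**Figure D2:**
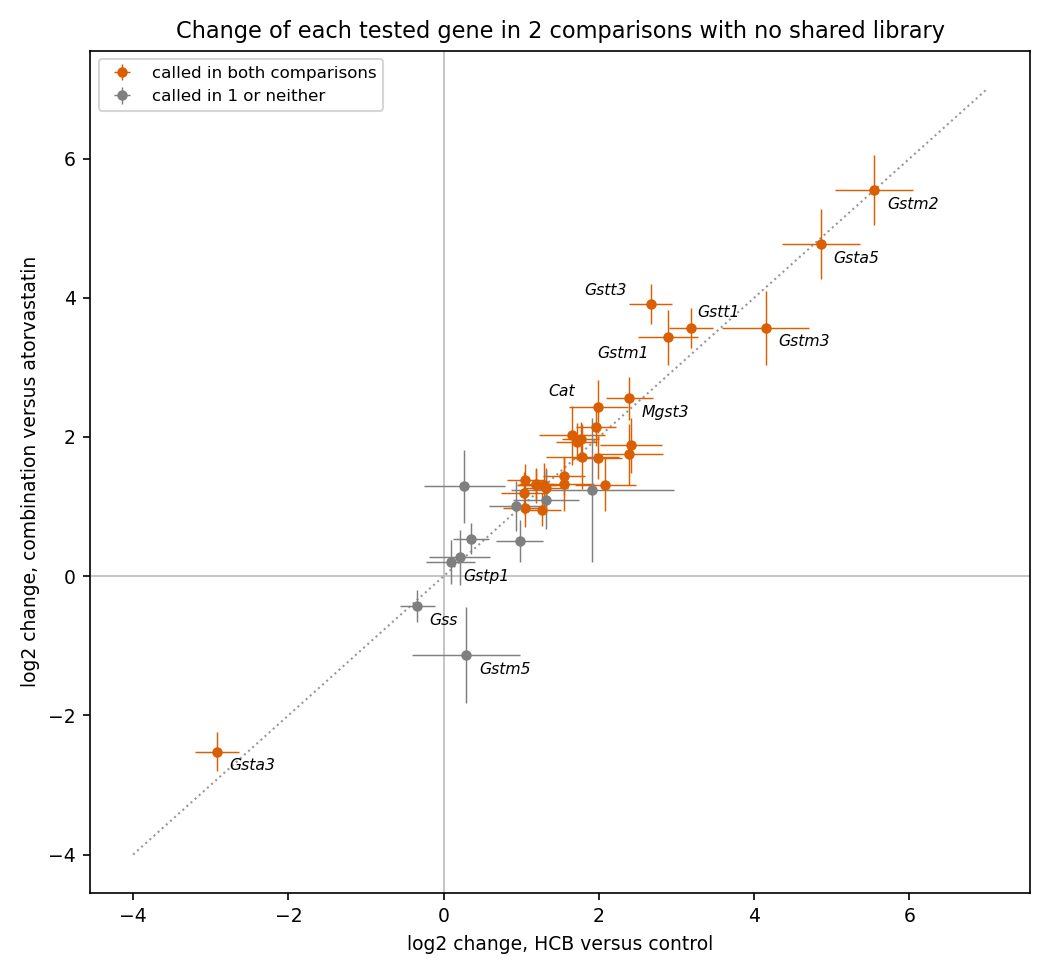
Log2 change of each tested gene in HCB versus control (horizontal) and in the combination versus atorvastatin (vertical), with bars of 1 SE and a dotted line where both are equal. The 27 genes called higher in both lie in the upper right, Gsta3 in the lower left, and Gstm5 is the 1 gene whose estimates differ in sign.

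Among the regulators, Nfe2l2 and Sqstm1 rose in both HCB comparisons and Keap1 was called in neither. Nfe2l2 (ENSRNOG00000001548, chromosome 3, 60594242 to 60621737 on mRatBN7.2), which encodes NRF2 itself, stood at 49.1 and 54.9 CPM in control, 50.96 and 62.7 CPM in atorvastatin, 112 and 104 CPM in HCB and 165 and 131 CPM in the combination. Its lowest HCB-labelled library was above its highest unexposed library. The log2 change of Nfe2l2 was 1.05 ± 0.24 (SE, adjusted p = 0.00808 by edgeR) in HCB versus control and 1.38 ± 0.24 (SE, adjusted p = 0.00203 by edgeR) in the combination versus atorvastatin. Keap1, its cytoplasmic partner, stood at 22.3 and 18.99 CPM in control, 19.6 and 20.5 CPM in atorvastatin, 24.4 and 28.4 CPM in HCB and 32.1 and 26.2 CPM in the combination. The ranges of Keap1 also did not overlap, but they lay close together. Its log2 change was 0.35 ± 0.23 (SE, adjusted p = 0.271 by edgeR) in HCB versus control and 0.54 ± 0.23 (SE, adjusted p = 0.0998 by edgeR) in the combination versus atorvastatin, with 95% intervals of −0.15 to 0.86 and 0.04 to 1.04. Sqstm1 encodes p62, an autophagy receptor that binds KEAP1 and competes with NRF2 for it. It stood at 191 and 171 CPM in control, 173 and 177 CPM in atorvastatin, 591 and 469 CPM in HCB and 503 and 441 CPM in the combination, so that all 4 unexposed libraries were nearly equal. Its log2 change was 1.55 ± 0.27 (SE, adjusted p = 0.00221 by edgeR) in HCB versus control and 1.43 ± 0.27 (SE, adjusted p = 0.00341 by edgeR) in the combination versus atorvastatin. Per length, the ratio of Nfe2l2 to Keap1 was 2.58 to 3.59 in the unexposed libraries and 4.31 to 6.02 in the HCB-labelled ones. Nfe2l2 was no longer called in HCB versus control without Control replicate 1 (adjusted p = 0.0796 by edgeR), the 2 libraries with most reads outside exons (0.0789) or with library size alone (0.0732).

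The antioxidant response element can be looked for in the DNA around the starts of these genes. Its core, TGACNNNGC, was searched on both strands from 250 bases before to 50 bases after each annotated start in the RefSeq promoter table (build GRCr8, so that its coordinates differ from those of the counts). Windows were found for 35 of the 39 genes. The core was in the window of 12 of the 35 (34.3%), where 13.1% of all 27457 genes with a window held it. Among genes called higher in both HCB comparisons 8 of 23 held it (34.8%), and among genes called in neither 3 of 8 (37.5%). A match is a description of letters, and binding was not measured here. The stretches below are shown because they set genes that rose beside genes that fell or were not called although they carry the same core. Not shown are the sites of Nfe2l2, Gstz1 and Gsta2, called higher in both comparisons, and of Gstm5, called in neither. Gstm5 held the core both 113 and 53 bases before its start. Each is 49 bases long, read 5′ to 3′ on the strand of the gene, with the core in capitals, which reads GCNNNGTCA where it lies on the opposite strand.
Gclm (chr2:213031943-213031991, plus strand), called higher in both comparisons: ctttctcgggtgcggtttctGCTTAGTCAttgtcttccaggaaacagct
Prdx1 (chr5:135383751-135383799, plus strand), called higher in both: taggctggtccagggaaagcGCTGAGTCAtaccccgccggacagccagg
Txnrd1 (chr7:22755954-22756002, minus strand), called higher in both: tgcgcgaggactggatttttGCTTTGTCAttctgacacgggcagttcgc
Ephx1 (chr13:95263146-95263194, minus strand), called higher in both: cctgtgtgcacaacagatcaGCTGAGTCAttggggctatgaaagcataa
Gstm7 (chr2:198260305-198260353, minus strand), called higher in both: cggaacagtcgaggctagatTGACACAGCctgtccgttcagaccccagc
Gsta3 (chr9:31154952-31155000, plus strand), called lower in both: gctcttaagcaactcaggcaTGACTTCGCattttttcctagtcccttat
Gstp1 (chr1:210769738-210769786, minus strand), called in neither: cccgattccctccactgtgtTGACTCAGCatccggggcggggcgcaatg
Gpx2 (chr6:101230018-101230066, minus strand), called in neither: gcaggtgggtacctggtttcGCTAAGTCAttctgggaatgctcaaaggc
The first base of the core lies 172 bases before the start in Gclm, 135 in Prdx1, 78 in Txnrd1, 61 in Gstp1, 57 in Ephx1, 17 in Gsta3, 14 in Gstm7 and 13 in Gpx2. Prdx1 and Ephx1, which rose, and Gstp1, which was not called, hold the same 9 letters, TGACTCAGC, on 1 strand or the other.

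Among the 4 alpha class genes chosen here, the makeup changed. Gsta5 and Gsta2 rose in both HCB comparisons, Gsta3 fell in both, and Gsta4 was called in neither. Gsta5 (ENSRNOG00000000201, chromosome 8, 79105661 to 79117472), a subunit known for detoxifying the epoxide of aflatoxin, stood at 9.75 and 21.9 CPM in control, 13.1 and 11.98 CPM in atorvastatin, 585 and 333 CPM in HCB and 239.7 and 449 CPM in the combination. Every HCB-labelled library was an order of magnitude above the highest unexposed one. On the log2 scale Gsta5 rose by 4.86 ± 0.50 (SE, adjusted p = 8.82e-05 by edgeR) in HCB versus control and 4.78 ± 0.50 (SE, adjusted p = 9.79e-05 by edgeR) in the combination versus atorvastatin. Gsta2 stood at 75.7 and 129 CPM in control, 98.05 and 162 CPM in atorvastatin, 703 and 388 CPM in HCB and 482 and 474 CPM in the combination, again with no overlap. The change of Gsta2 on the log2 scale was 2.41 ± 0.40 (SE, adjusted p = 0.00158 by edgeR) in HCB versus control and 1.88 ± 0.39 (SE, adjusted p = 0.00565 by edgeR) in the combination versus atorvastatin. Gsta3 (ENSRNOG00000056847, chromosome 9, 23658574 to 23684240) went the other way and stood at 97.4 and 109.5 CPM in control, 79.5 and 103 CPM in atorvastatin, 13.7 and 13.6 CPM in HCB and 12.3 and 19.5 CPM in the combination. All 4 HCB-labelled libraries lay far below the other 4, with a log2 change of −2.92 ± 0.28 (SE, adjusted p = 5.35e-05 by edgeR) in HCB versus control and −2.52 ± 0.28 (SE, adjusted p = 0.000132 by edgeR) in the combination versus atorvastatin. Gsta4, which prefers aldehydes from lipid peroxidation, stood at 21.9 and 39.8 CPM in control, 19.4 and 35.4 CPM in atorvastatin, 70.6 and 47.8 CPM in HCB and 52.1 and 58.2 CPM in the combination. Its ranges did not overlap, but it was called in neither comparison, at 0.94 ± 0.35 (SE, adjusted p = 0.071 by edgeR) in HCB versus control and 1.01 ± 0.35 (SE, adjusted p = 0.0544 by edgeR) in the combination versus atorvastatin on the log2 scale. The class holds further members with similar sequences. Reads that fit more than 1 copy were left unassigned, so near-identical copies may be undercounted and the split between them is uncertain. Summed over Gsta2 to Gsta5, the class stood at 257 ± 57.3 CPM (SD, n = 4) in the unexposed libraries and 985 ± 277 CPM (SD, n = 4) in the HCB-labelled ones, 3.84 times as high. With Gsta1 and Gsta6 added, the ratio was 4.27. Per length, Gsta3 made up 34.6% to 48.2% of the 4 genes in the unexposed libraries and 0.707% to 1.35% in the HCB-labelled ones, while Gsta5 went from 8.73% to 15.8% up to 52.6% to 67.2%. Gsta4 was called in HCB versus control by DESeq2 (adjusted p = 0.0428), with no filter on low counts (0.00648), without Control replicate 2 (0.0364), without Atorvastatin replicate 1 (0.0372) and without Atorvastatin replicate 2 (0.0365). In the combination versus atorvastatin it was called by DESeq2 (adjusted p = 0.0295), with no filter on low counts (0.00267), with a replicate block (0.0463), with the 4 libraries compared alone (0.0391), without Control replicate 1 (0.0414), without Control replicate 2 (0.0387) and without Atorvastatin replicate 2 (0.016).

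The mu class held the largest log2 change of the 38 genes, that of Gstm2. Of its 6 genes, 5 rose in both HCB comparisons and Gstm5 was called in neither. Gstm2 (ENSRNOG00000060939, chromosome 2, 195544426 to 195628961) stood at 20.6 and 20.98 CPM in control, 12.00 and 34.2 CPM in atorvastatin, 960.1 and 987 CPM in HCB and 1036 and 1134 CPM in the combination. The 4 HCB-labelled libraries were close to each other and far above the others. The log2 change of Gstm2 was 5.55 ± 0.50 (SE, adjusted p = 3.44e-05 by edgeR) in HCB versus control and 5.55 ± 0.50 (SE, adjusted p = 3.87e-05 by edgeR) in the combination versus atorvastatin. Gstm1, a mu subunit abundant in adult rat liver, stood at 120.0 and 182 CPM in control, 101 and 168 CPM in atorvastatin, 974 and 1260.1 CPM in HCB and 1277 and 1621 CPM in the combination. It did not overlap either, and it rose by 2.89 ± 0.39 (SE, adjusted p = 0.000443 by edgeR) in HCB versus control and 3.43 ± 0.40 (SE, adjusted p = 0.000179 by edgeR) in the combination versus atorvastatin on the log2 scale. Gstm7 stood at 25.8 and 26.2 CPM in control, 19.1 and 28.1 CPM in atorvastatin, 97.5 and 73.4 CPM in HCB and 98.1 and 81.9 CPM in the combination. Its rise was 1.72 ± 0.26 (SE, adjusted p = 0.000968 by edgeR) in HCB versus control and 1.93 ± 0.26 (SE, adjusted p = 0.000517 by edgeR) in the combination versus atorvastatin on the log2 scale. Gstm3 was near 1 CPM in the unexposed libraries and stood at 0.863 and 0.639 CPM in control, 1.10 and 1.39 CPM in atorvastatin, 17.4 and 9.27 CPM in HCB and 7.34 and 22.4 CPM in the combination. Its HCB-labelled libraries differed among themselves more than those of Gstm2, and its log2 change was 4.15 ± 0.56 (SE, adjusted p = 0.000471 by edgeR) in HCB versus control and 3.57 ± 0.53 (SE, adjusted p = 0.000881 by edgeR) in the combination versus atorvastatin. Gstm4 rose from 14.8 ± 1.00 CPM to 32.1 ± 5.91 CPM (SD, n = 4 each). On the log2 scale this was 1.26 ± 0.25 (SE, adjusted p = 0.00384 by edgeR) in HCB versus control and 0.96 ± 0.24 (SE, adjusted p = 0.0148 by edgeR) in the combination versus atorvastatin. Gstm5 averaged 1.59 ± 0.860 CPM and 1.16 ± 0.689 CPM (SD, n = 4 each), with overlapping groups. Its changes of 0.29 ± 0.70 (SE, adjusted p = 0.784 by edgeR) in HCB versus control and −1.13 ± 0.69 (SE, adjusted p = 0.243 by edgeR) in the combination versus atorvastatin differed in sign. Per length, the ratio of Gstm2 to Gstm1 was 0.102 to 0.181 in the unexposed libraries and 0.623 to 0.877 in the HCB-labelled ones. The summed level of the 6 genes was 207 ± 49.4 CPM (SD, n = 4) against 2448 ± 334 CPM (SD, n = 4), 11.8 times as high. The annotated span of Gstm2 covers Gstm7 and Gstm3 on the same strand. Reads that fit more than 1 copy of this cluster were left unassigned, so the split between the copies is uncertain. Gstm4 was no longer called in HCB versus control with library size alone (adjusted p = 0.0743 by edgeR). For Gstm4 in the combination versus atorvastatin, the same happened without Atorvastatin replicate 1 (adjusted p = 0.0876 by edgeR), combination replicate 2 (0.132), the 2 libraries with most reads outside exons (0.126) or with library size alone (0.392).

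**Figure D3:**
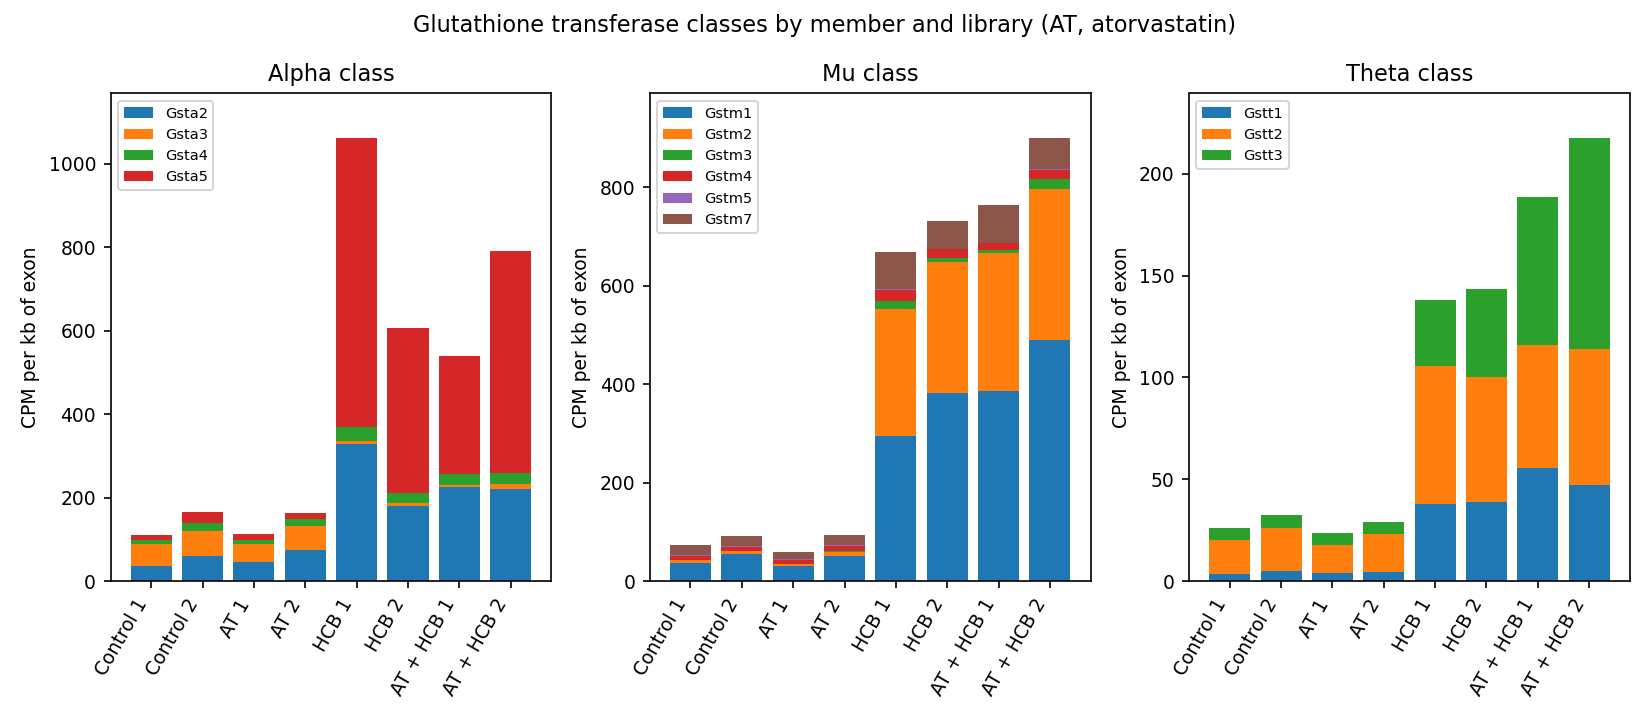
Summed level of the chosen alpha (Gsta2 to Gsta5), mu and theta class glutathione transferases in each library, in CPM per kb of exon. Each bar is stacked by gene, and the alpha bars leave out Gsta1 and Gsta6. Gsta3, a large part of the alpha bars in control and atorvastatin, is nearly absent from the HCB and combination bars, where Gsta5 takes the largest part, and Gstm2 joins Gstm1 in the mu bars.

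The theta class handles small halogenated compounds. Its 3 genes among the 39 rose in both HCB comparisons, and Gstt1 and Gstt3 had the largest changes. A further theta class gene, Gstt4, had too few reads to be tested and is not in the sums below. Gstt1 (chromosome 20, 12856669 to 12873585) stood at 3.33 and 5.30 CPM in control, 4.10 and 4.76 CPM in atorvastatin, 38.8 and 39.8 CPM in HCB and 57.1 and 48.2 CPM in the combination. No HCB-labelled library overlapped the others, and the log2 change of Gstt1 was 3.19 ± 0.28 (SE, adjusted p = 3.04e-05 by edgeR) in HCB versus control and 3.57 ± 0.29 (SE, adjusted p = 1.66e-05 by edgeR) in the combination versus atorvastatin. Gstt3 (chromosome 20, 12874854 to 12882599), its neighbour on the chromosome, stood at 13.9 and 15.3 CPM in control, 13.6 and 15.1 CPM in atorvastatin, 79.4 and 106 CPM in HCB and 178 and 254 CPM in the combination. The 4 unexposed libraries were nearly equal, and both combination libraries lay above both HCB libraries. For Gstt3 the log2 change was 2.67 ± 0.27 (SE, adjusted p = 7.89e-05 by edgeR) in HCB versus control and 3.92 ± 0.29 (SE, adjusted p = 8.84e-06 by edgeR) in the combination versus atorvastatin. Gstt2, the third of this cluster, stood at 29.7 and 36.5 CPM in control, 24.2 and 31.8 CPM in atorvastatin, 118 and 107 CPM in HCB and 105 and 116 CPM in the combination. Its libraries lay close together within each set, and the log2 change was 1.76 ± 0.24 (SE, adjusted p = 0.000502 by edgeR) in HCB versus control and 1.98 ± 0.24 (SE, adjusted p = 0.000262 by edgeR) in the combination versus atorvastatin. The class summed to 49.4 ± 6.54 CPM (SD, n = 4) in the unexposed libraries and 312 ± 84.5 CPM (SD, n = 4) in the HCB-labelled ones, 6.32 times as high. Per length, Gstt2 went from 59.4% to 65.6% of the class down to 30.7% to 49.1%.

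The remaining soluble transferases differed among themselves, and Gstp1 of the pi class was not called. Gstp3, by its name a pi class relative, was called higher in both HCB comparisons and is described below with the further transferases. Gstp1 (ENSRNOG00000018237, chromosome 1, 201321672 to 201340226), the marker of preneoplastic foci, stood at 12.6 and 16.5 CPM in control, 8.86 and 17.03 CPM in atorvastatin, 17.2 and 13.8 CPM in HCB and 13.99 and 15.8 CPM in the combination. Its groups overlapped. The log2 change of Gstp1 was 0.09 ± 0.32 (SE, adjusted p = 0.858 by edgeR) in HCB versus control and 0.20 ± 0.32 (SE, adjusted p = 0.659 by edgeR) in the combination versus atorvastatin, with 95% intervals of −0.61 to 0.79 and −0.50 to 0.90, which do not exclude a change of either sign. Gstk1, the kappa class enzyme of mitochondria and peroxisomes, stood at 25.9 and 40.1 CPM in control, 26.8 and 31.8 CPM in atorvastatin, 133 and 125 CPM in HCB and 128 and 130.1 CPM in the combination. Its HCB-labelled libraries lay within a narrow range well above the others, and its log2 change was 1.96 ± 0.26 (SE, adjusted p = 0.000427 by edgeR) in HCB versus control and 2.14 ± 0.26 (SE, adjusted p = 0.000263 by edgeR) in the combination versus atorvastatin. Gstz1, the zeta class enzyme of tyrosine breakdown, rose from 195 ± 18.6 CPM to 394 ± 63.3 CPM (SD, n = 4 each). The change was 1.04 ± 0.28 (SE, adjusted p = 0.0185 by edgeR) in HCB versus control and 0.99 ± 0.28 (SE, adjusted p = 0.0232 by edgeR) in the combination versus atorvastatin on the log2 scale. Gsto1, an omega class enzyme, had a log2 change of 0.98 ± 0.30 (SE, adjusted p = 0.0346 by edgeR) in HCB versus control and 0.51 ± 0.30 (SE, adjusted p = 0.224 by edgeR) in the combination versus atorvastatin, so it was called in the first comparison only, and its groups overlapped. Gstz1 also overlaps Pomt2 on the other strand, which had 3325 reads against 93012. Over all 17 soluble transferases, the summed level was 787 ± 143 CPM (SD, n = 4) in the unexposed libraries and 4341 ± 389 CPM (SD, n = 4) in the HCB-labelled ones, 5.51 times as high. Gsto1 was called in the combination versus atorvastatin without Atorvastatin replicate 2 (adjusted p = 0.0357). Gstz1 was no longer called in HCB versus control without Control replicate 1 (adjusted p = 0.122 by edgeR), Control replicate 2 (0.071), HCB replicate 1 (0.0815), the 2 libraries with most reads outside exons (0.103) or with library size alone (0.0878). For Gstz1 in the combination versus atorvastatin, the same happened without Atorvastatin replicate 1 (adjusted p = 0.132 by edgeR), combination replicate 1 (0.155), combination replicate 2 (0.0654), the 2 libraries with most reads outside exons (0.149) or with library size alone (0.25). Gsto1 was no longer called in HCB versus control without Control replicate 1 (adjusted p = 0.165 by edgeR), Control replicate 2 (0.103), HCB replicate 1 (0.177), the 2 libraries with most reads outside exons (0.106) or with library size alone (0.193).

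All 3 microsomal transferases rose in both HCB comparisons. Mgst1, an abundant enzyme of the endoplasmic reticulum and outer mitochondrial membrane that also reduces lipid peroxides, stood at 779 and 1121 CPM in control, 735 and 1065 CPM in atorvastatin, 3439 and 2131 CPM in HCB and 2392 and 2127 CPM in the combination. It had the largest mean level per length of all 39 genes, although its range overlapped that of Cat in the HCB-labelled libraries. The log2 change of Mgst1 was 1.55 ± 0.39 (SE, adjusted p = 0.0139 by edgeR) in HCB versus control and 1.33 ± 0.39 (SE, adjusted p = 0.0266 by edgeR) in the combination versus atorvastatin. Mgst2 stood at 26.3 and 37.2 CPM in control, 22.3 and 34.1 CPM in atorvastatin, 92.4 and 65.4 CPM in HCB and 66.1 and 68.98 CPM in the combination. It rose by 1.31 ± 0.29 (SE, adjusted p = 0.00723 by edgeR) in HCB versus control and 1.26 ± 0.29 (SE, adjusted p = 0.00878 by edgeR) in the combination versus atorvastatin on the log2 scale. Mgst3 stood at 11.4 and 18.6 CPM in control, 12.5 and 14.6 CPM in atorvastatin, 92.2 and 64.9 CPM in HCB and 89.7 and 69.7 CPM in the combination. It had the largest change of the 3, and its HCB-labelled libraries all lay above the others. On the log2 scale Mgst3 rose by 2.39 ± 0.30 (SE, adjusted p = 0.000308 by edgeR) in HCB versus control and 2.55 ± 0.30 (SE, adjusted p = 0.000215 by edgeR) in the combination versus atorvastatin. Mgst3 (14479 reads in all libraries) overlaps Aldh9a1 on the other strand (215221 reads), and counting used no strand. Reads over exons of both genes were left unassigned, and other reads of the overlap cannot be told apart by strand. Mgst1 was no longer called in HCB versus control without Control replicate 1 (adjusted p = 0.126 by edgeR), HCB replicate 1 (0.0942) or the 2 libraries with most reads outside exons (0.0744). For Mgst1 in the combination versus atorvastatin, the same happened without Atorvastatin replicate 1 (adjusted p = 0.131 by edgeR), combination replicate 1 (0.137), combination replicate 2 (0.0844), the 2 libraries with most reads outside exons (0.12) or with library size alone (0.0522). Mgst2 was no longer called in HCB versus control without Control replicate 1 (adjusted p = 0.0796 by edgeR) or the 2 libraries with most reads outside exons (0.067). For Mgst2 in the combination versus atorvastatin, the same happened without Atorvastatin replicate 1 (adjusted p = 0.0693 by edgeR), the 2 libraries with most reads outside exons (0.0872) or with library size alone (0.0664).

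In glutathione supply, the modifier subunit of glutamate-cysteine ligase rose while the catalytic subunit was not called. This ligase makes the rate-limiting step of glutathione synthesis. Gclm (ENSRNOG00000013409, chromosome 2, 210347482 to 210367535), the modifier subunit, stood at 54.3 and 66.02 CPM in control, 57.96 and 57.2 CPM in atorvastatin, 282 and 194 CPM in HCB and 139 and 236 CPM in the combination. The 4 unexposed libraries lay close together, well below the HCB-labelled ones, and it rose on the log2 scale by 1.98 ± 0.31 (SE, adjusted p = 0.0012 by edgeR) in HCB versus control and 1.70 ± 0.31 (SE, adjusted p = 0.00283 by edgeR) in the combination versus atorvastatin. Gclc (chromosome 8, 78630127 to 78668544), the catalytic subunit, stood at 196 and 240.5 CPM in control, 219.5 and 165 CPM in atorvastatin, 223 and 281 CPM in HCB and 129 and 334 CPM in the combination. Its groups overlapped, and the combination libraries held both its lowest and its highest value. The log2 change of Gclc was 0.21 ± 0.40 (SE, adjusted p = 0.731 by edgeR) in HCB versus control and 0.27 ± 0.40 (SE, adjusted p = 0.632 by edgeR) in the combination versus atorvastatin, with 95% intervals of −0.66 to 1.08 and −0.60 to 1.14. Per length, the ratio of Gclc to Gclm was 1.40 to 1.85 in the unexposed libraries and 0.385 to 0.706 in the HCB-labelled ones, without overlap. Gss, the synthetase of the second step, averaged 40.2 ± 4.57 CPM and 30.8 ± 2.51 CPM (SD, n = 4 each). All 4 of its HCB-labelled libraries were below the other 4, but it was called in neither comparison, at −0.34 ± 0.23 (SE, adjusted p = 0.286 by edgeR) in HCB versus control and −0.43 ± 0.23 (SE, adjusted p = 0.177 by edgeR) in the combination versus atorvastatin on the log2 scale. Gss overlaps Acss2 on the other strand, which had 24943 reads against 11697 of Gss, so its reads are uncertain. Gsr, the reductase that recycles oxidised glutathione, stood at 61.5 and 68.96 CPM in control, 65.3 and 54.2 CPM in atorvastatin, 153 and 146 CPM in HCB and 123 and 173 CPM in the combination. All 4 HCB-labelled libraries exceeded the others, and Gsr rose by 1.19 ± 0.25 (SE, adjusted p = 0.0059 by edgeR) in HCB versus control and 1.31 ± 0.25 (SE, adjusted p = 0.00371 by edgeR) in the combination versus atorvastatin on the log2 scale. Ggt1, the surface enzyme that breaks glutathione down, was low and stood at 1.32 and 1.52 CPM in control, 1.20 and 1.06 CPM in atorvastatin, 2.28 and 1.15 CPM in HCB and 1.78 and 3.73 CPM in the combination. Its groups overlapped, with a log2 change of 0.27 ± 0.52 (SE, adjusted p = 0.734 by edgeR) in HCB versus control and 1.29 ± 0.53 (SE, adjusted p = 0.09 by edgeR) in the combination versus atorvastatin. Ggt1 (569 reads) overlaps Lrrc75b on the other strand (231 reads). Slc7a11, a subunit of the cystine importer, had 0 to 10 reads in the unexposed libraries and 2 to 18 in the HCB-labelled ones and was not tested. With library size alone, Gss was called lower in the combination versus atorvastatin (edgeR adjusted p = 0.0133). Gsr was no longer called in HCB versus control without Control replicate 1 (adjusted p = 0.0598 by edgeR), the 2 libraries with most reads outside exons (0.0654) or with library size alone (0.0761). For Gsr in the combination versus atorvastatin, the same happened with library size alone (adjusted p = 0.0956 by edgeR).

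**Figure D4:**
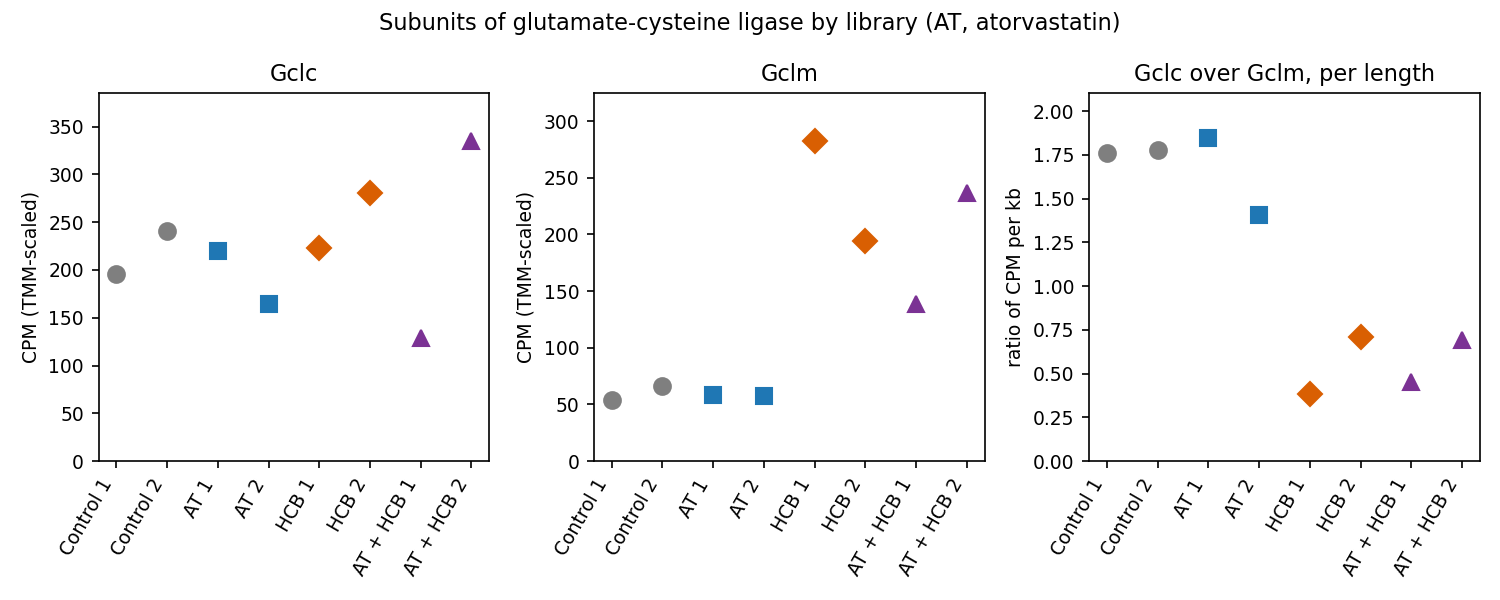
Level of Gclc (left) and Gclm (middle) in each library, in CPM, and the ratio of Gclc to Gclm per length (right), with 1 point per library. Gclm and the ratio separate the HCB and combination libraries from the others, with ratios of 0.385 to 0.706 against 1.40 to 1.85, whereas the Gclc points overlap.

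The thioredoxin branch rose in HCB versus control in all 4 of its genes and in 3 of 4 in the combination versus atorvastatin. Txnrd1, the reductase that keeps thioredoxin reduced, stood at 39.9 and 42.01 CPM in control, 44.7 and 39.8 CPM in atorvastatin, 85.1 and 102 CPM in HCB and 98.9 and 112 CPM in the combination. Its libraries lay close together within each group, and the log2 change was 1.20 ± 0.22 (SE, adjusted p = 0.00305 by edgeR) in HCB versus control and 1.32 ± 0.22 (SE, adjusted p = 0.00177 by edgeR) in the combination versus atorvastatin. Srxn1, which repairs overoxidised peroxiredoxins, was lower in level and stood at 1.02 and 0.971 CPM in control, 1.41 and 1.54 CPM in atorvastatin, 4.31 and 4.11 CPM in HCB and 4.29 and 3.06 CPM in the combination. No group with HCB overlapped a group without, and the log2 change of Srxn1 was 2.08 ± 0.39 (SE, adjusted p = 0.00334 by edgeR) in HCB versus control and 1.31 ± 0.38 (SE, adjusted p = 0.0262 by edgeR) in the combination versus atorvastatin. Prdx1, the peroxiredoxin that thioredoxin serves, stood at 116 and 255 CPM in control, 89.1 and 204 CPM in atorvastatin, 794 and 485 CPM in HCB and 479 and 487 CPM in the combination. The libraries of each unexposed group differed among themselves, and the log2 change was 1.79 ± 0.47 (SE, adjusted p = 0.0175 by edgeR) in HCB versus control and 1.72 ± 0.47 (SE, adjusted p = 0.0207 by edgeR) in the combination versus atorvastatin. Txn1, thioredoxin itself, had a log2 change of 1.32 ± 0.42 (SE, adjusted p = 0.0403 by edgeR) in HCB versus control and 1.10 ± 0.42 (SE, adjusted p = 0.0747 by edgeR) in the combination versus atorvastatin, so it was called in the first of these comparisons only, with HCB-labelled libraries all above the others. In the second, Txn1 was called by DESeq2 (adjusted p = 0.0332), with no filter on low counts (0.00146), with the 4 libraries compared alone (0.017), without Control replicate 1 (0.0496) and without Control replicate 2 (0.0464). Txnrd1 was no longer called in HCB versus control with library size alone (adjusted p = 0.065 by edgeR). For Txnrd1 in the combination versus atorvastatin, the same happened with library size alone (adjusted p = 0.0795 by edgeR). Srxn1 was no longer called in the combination versus atorvastatin without Atorvastatin replicate 1 (adjusted p = 0.119 by edgeR), Atorvastatin replicate 2 (0.0716), combination replicate 1 (0.19), combination replicate 2 (0.0519), the 2 libraries with most reads outside exons (0.126) or with library size alone (0.25). Prdx1 was no longer called in HCB versus control without Control replicate 1 (adjusted p = 0.138 by edgeR), HCB replicate 1 (0.128) or the 2 libraries with most reads outside exons (0.0635). For Prdx1 in the combination versus atorvastatin, the same happened without Atorvastatin replicate 1 (adjusted p = 0.107 by edgeR), combination replicate 1 (0.0733), combination replicate 2 (0.066) or the 2 libraries with most reads outside exons (0.0761). Txn1 was no longer called in HCB versus control without Control replicate 1 (adjusted p = 0.257 by edgeR), HCB replicate 1 (0.333), combination replicate 1 (0.0515), combination replicate 2 (0.0516), the 2 libraries with most reads outside exons (0.25) or with library size alone (0.0668).

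Of the genes of peroxide removal, Cat and Gpx1 rose and Gpx2 was not called. Cat, catalase of the peroxisome, stood at 788 and 1002 CPM in control, 643 and 920.2 CPM in atorvastatin, 2959 and 4169 CPM in HCB and 4173 and 4274 CPM in the combination. Catalase rose by 1.99 ± 0.38 (SE, adjusted p = 0.00333 by edgeR) in HCB versus control and 2.43 ± 0.38 (SE, adjusted p = 0.00119 by edgeR) in the combination versus atorvastatin on the log2 scale. Gpx1, the selenium-dependent peroxidase of the cytosol that uses glutathione, stood at 110.9 and 134 CPM in control, 97.3 and 241 CPM in atorvastatin, 738 and 538 CPM in HCB and 426 and 713 CPM in the combination. Both genes kept the HCB-labelled libraries apart from the others, and the log2 change of Gpx1 was 2.38 ± 0.44 (SE, adjusted p = 0.00307 by edgeR) in HCB versus control and 1.75 ± 0.43 (SE, adjusted p = 0.0132 by edgeR) in the combination versus atorvastatin. Gpx2, known from gut epithelium, had 2 to 14 reads in the unexposed libraries and 8 to 30 in the HCB-labelled ones. It stood at 0.0508 and 0.284 CPM in control, 0.0958 and 0.291 CPM in atorvastatin, 0.760 and 0.534 CPM in HCB and 0.752 and 0.180 CPM in the combination, with overlapping groups. At this depth its change was not resolved, with a log2 change of 1.92 ± 1.05 (SE, adjusted p = 0.201 by edgeR) in HCB versus control and 1.24 ± 1.03 (SE, adjusted p = 0.391 by edgeR) in the combination versus atorvastatin and a 95% interval of −0.40 to 4.24 in the first comparison. Gpx2 also overlaps Fntb on the other strand, which had 6947 reads against 114 of Gpx2. Gpx1 was no longer called in the combination versus atorvastatin without Atorvastatin replicate 1 (adjusted p = 0.0657 by edgeR), combination replicate 2 (0.095) or the 2 libraries with most reads outside exons (0.0946).

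Ephx1 rose in both HCB comparisons, as did Taldo1 and Tkt, enzymes of the non-oxidative pentose phosphate pathway. Ephx1, the microsomal epoxide hydrolase, stood at 159.8 and 270.2 CPM in control, 199 and 257 CPM in atorvastatin, 612 and 742 CPM in HCB and 566 and 1287 CPM in the combination. The second of its combination libraries was the highest of the 8 and more than doubled the first. On the log2 scale Ephx1 rose by 1.66 ± 0.42 (SE, adjusted p = 0.015 by edgeR) in HCB versus control and 2.02 ± 0.43 (SE, adjusted p = 0.00589 by edgeR) in the combination versus atorvastatin. Taldo1, transaldolase, stood at 18.6 and 32.6 CPM in control, 20.3 and 30.7 CPM in atorvastatin, 55.5 and 49.9 CPM in HCB and 63.9 and 53.04 CPM in the combination. Taldo1 rose by 1.04 ± 0.30 (SE, adjusted p = 0.0269 by edgeR) in HCB versus control and 1.20 ± 0.30 (SE, adjusted p = 0.0146 by edgeR) in the combination versus atorvastatin on the log2 scale. Tkt, transketolase, stood at 55.6 and 81.3 CPM in control, 70.6 and 105 CPM in atorvastatin, 127 and 208 CPM in HCB and 240.1 and 194 CPM in the combination. Tkt rose by 1.29 ± 0.33 (SE, adjusted p = 0.0147 by edgeR) in HCB versus control and 1.30 ± 0.33 (SE, adjusted p = 0.0139 by edgeR) in the combination versus atorvastatin, on the log2 scale as well. For both genes the lowest HCB-labelled library was above the highest unexposed one. Ephx1 was no longer called in HCB versus control without Control replicate 1 (adjusted p = 0.131 by edgeR), HCB replicate 2 (0.0626) or the 2 libraries with most reads outside exons (0.128). For Ephx1 in the combination versus atorvastatin, the same happened without combination replicate 2 (adjusted p = 0.0592 by edgeR) or the 2 libraries with most reads outside exons (0.0507). Taldo1 was no longer called in HCB versus control without Control replicate 1 (adjusted p = 0.219 by edgeR), HCB replicate 1 (0.107), HCB replicate 2 (0.0567), the 2 libraries with most reads outside exons (0.174) or with library size alone (0.0899). For Taldo1 in the combination versus atorvastatin, the same happened without Atorvastatin replicate 1 (adjusted p = 0.101 by edgeR), combination replicate 1 (0.0976), the 2 libraries with most reads outside exons (0.0823) or with library size alone (0.099). Tkt was no longer called in HCB versus control without Control replicate 1 (adjusted p = 0.133 by edgeR), HCB replicate 2 (0.086) or the 2 libraries with most reads outside exons (0.119). For Tkt in the combination versus atorvastatin, the same happened without Atorvastatin replicate 1 (adjusted p = 0.0923 by edgeR), combination replicate 1 (0.0932), the 2 libraries with most reads outside exons (0.113) or with library size alone (0.078).

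The order of levels was compared per kb of exon, since longer genes draw more reads. In the unexposed libraries Mgst1 led with a mean of 769 CPM per kb (611 to 932), above Cat at 352 (270.1 to 421) without overlap. Prdx1 at 172 (92.5 to 265) and Gpx1 at 161 (108 to 267) followed and could not be ordered within their spread. In the HCB-labelled libraries Mgst1 stood at 2096 CPM per kb (1768 to 2858) and Cat at 1636 (1243 to 1796), whose ranges overlapped. Gpx1 at 668 (472 to 817), Prdx1 at 583 (497 to 825) and Gsta5 at 476 (284 to 693) came next, also with overlapping ranges. Gsta5 moved from rank 23 to rank 5 of the 39 genes and Gstm2 from rank 31 to rank 8. In the other direction, Gsta3 moved from rank 10 to rank 34 and Gclc from rank 8 to rank 17. The mean level of Gclc itself was 67.4 CPM per kb (54.0 to 79.0) in the unexposed and 79.3 (42.2 to 110) in the HCB-labelled libraries. These ranges overlapped, and neither a rise nor a fall of Gclc was resolved. The lowest in both sets were Gpx2 and Slc7a11.

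Beside these genes, 5 lists of other genes of the pathway were examined, with 80 symbols, of which 74 were in the table and 70 were tested. In HCB versus control 29 of the 70 rose and 7 fell, where 13.05% of all genes were called higher and 13.9% lower, and the median log2 change was 0.76. In the combination versus atorvastatin 34 rose and 4 fell, against 12.6% and 14.99% of all genes, with a median of 0.80. The counts that fell, 7 and 4 of 70, do not exceed these shares of all genes. The count that rose was 17 without Control replicate 1 in the first comparison and 22 without combination replicate 2 in the second. With library size alone 19 and 22 rose, and in the second comparison 13 fell. Among 11 partners and regulators of NRF2, 0 rose in either comparison (edgeR adjusted p under 0.05), while 3 fell in HCB versus control and 2 in the combination versus atorvastatin. With 13.9% and 14.99% of all genes called lower, so few genes are no result about the list, and their values are given as a description. Bach2, a relative of the repressor of antioxidant genes, had a log2 change of −2.48 ± 0.46 (SE, adjusted p = 0.00307 by edgeR) in HCB versus control and −2.39 ± 0.45 (SE, adjusted p = 0.00359 by edgeR) in the combination versus atorvastatin. Fyn, a kinase linked to export of NRF2 from the nucleus, changed by −1.75 ± 0.28 (SE, adjusted p = 0.00139 by edgeR) in HCB versus control and −1.48 ± 0.28 (SE, adjusted p = 0.00341 by edgeR) in the combination versus atorvastatin on the log2 scale. Btrc, the ligase adaptor that also acts on NRF2, had a change of −0.75 ± 0.23 (SE, adjusted p = 0.0368 by edgeR) in HCB versus control and −0.62 ± 0.23 (SE, adjusted p = 0.0712 by edgeR) in the combination versus atorvastatin. Of 17 further NRF2 targets 9 rose and 3 fell in HCB versus control, and 11 rose and 2 fell in the combination versus atorvastatin. Akr7a3, an aldehyde reductase for aflatoxin products, averaged 1.94 CPM in the unexposed and 131 CPM in the HCB-labelled libraries, with a log2 change of 5.98 ± 0.50 (SE, adjusted p = 2.38e-05 by edgeR) in HCB versus control and 6.17 ± 0.51 (SE, adjusted p = 2.09e-05 by edgeR) in the combination versus atorvastatin. Me1, the malic enzyme that makes NADPH, rose by 2.83 and 2.75 and Akr7a2 by 1.94 and 2.24 on the log2 scale. Nqo1, the quinone reductase most used as a readout of NRF2, rose by 2.45 ± 0.38 (SE, adjusted p = 0.000996 by edgeR) in HCB versus control and 2.74 ± 0.38 (SE, adjusted p = 0.000578 by edgeR) in the combination versus atorvastatin on the log2 scale. Hmox1, heme oxygenase, another common readout, fell, from a mean of 107 CPM in the unexposed libraries to 28.96 CPM in the HCB-labelled ones, with a log2 change of −1.95 ± 0.27 (SE, adjusted p = 0.000499 by edgeR) in HCB versus control and −1.81 ± 0.27 (SE, adjusted p = 0.000749 by edgeR) in the combination versus atorvastatin. The export pump Abcc3 changed by −3.39 and −2.89 on the log2 scale and fell in both.

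A further list held 20 tested genes of peroxidases, peroxiredoxins, thioredoxins, glutaredoxins and superoxide dismutases. Of these, 8 rose and 1 fell in HCB versus control and 9 rose in the combination versus atorvastatin. Over all genes tested, 13.05% rose and 13.9% fell in the first comparison, and 12.6% and 14.99% in the second. The lipid peroxidase Gpx4 rose by 1.85 ± 0.29 (SE, adjusted p = 0.00109 by edgeR) in HCB versus control and 1.48 ± 0.29 (SE, adjusted p = 0.00377 by edgeR) in the combination versus atorvastatin on the log2 scale, and the cytosolic superoxide dismutase Sod1 by 1.88 and 2.04. The peroxiredoxin Prdx5 rose by 1.22 and 1.23. Txnip, which binds and blocks thioredoxin, changed by −0.96 ± 0.23 (SE, adjusted p = 0.0105 by edgeR) in HCB versus control and −0.64 ± 0.23 (SE, adjusted p = 0.0539 by edgeR) in the combination versus atorvastatin. The 16 tested genes of cysteine supply and glutathione breakdown held 10 that rose and 0 that fell in HCB versus control, and 12 and 0 in the combination versus atorvastatin. The largest of these lay in the use of cysteine for taurine, where Cdo1, cysteine dioxygenase, rose by 3.77 ± 0.48 (SE, adjusted p = 0.000341 by edgeR) in HCB versus control and 2.88 ± 0.46 (SE, adjusted p = 0.00139 by edgeR) in the combination versus atorvastatin and Csad, the decarboxylase that follows it, by 3.35 and 3.41 on the log2 scale. Oplah, which returns oxoproline to glutamate, rose by 2.00 and 2.59. Of 6 further transferases 2 rose in both comparisons and 0 fell, with a median log2 change of −0.10 and 0.38 over the list. So few genes are no result about that list, and their values are given as a description. Gsta1 rose by 2.43 ± 0.32 (SE, adjusted p = 0.000425 by edgeR) in HCB versus control and 2.48 ± 0.32 (SE, adjusted p = 0.000391 by edgeR) in the combination versus atorvastatin on the log2 scale. Gstp3, by its name a pi class relative, rose by 2.30 ± 0.51 (SE, adjusted p = 0.00767 by edgeR) in HCB versus control and 1.83 ± 0.50 (SE, adjusted p = 0.0207 by edgeR) in the combination versus atorvastatin on the log2 scale. Txnip was called lower in the combination versus atorvastatin by DESeq2 (adjusted p = 0.0314), with a stricter filter (0.0334), with the 4 libraries compared alone (0.043), with halved counts (0.0431), without HCB replicate 1 (0.0491), without HCB replicate 2 (0.0432) and with library size alone (0.00303), and Btrc with library size alone (adjusted p = 0.0121). Reads that fit close relatives such as Gstp1 and Gstp3 equally well were left unassigned. Fyn was no longer called in the combination versus atorvastatin without combination replicate 1 (adjusted p = 0.0508 by edgeR). Btrc was no longer called in HCB versus control without Control replicate 1 (adjusted p = 0.134 by edgeR), Control replicate 2 (0.134), HCB replicate 1 (0.128), HCB replicate 2 (0.0506), combination replicate 1 (0.0797), combination replicate 2 (0.0802), the 2 libraries with most reads outside exons (0.137), with no filter on low counts (0.0536) or with the 4 libraries compared alone (0.082). Gpx4 was no longer called in the combination versus atorvastatin without the 2 libraries with most reads outside exons (adjusted p = 0.0614 by edgeR). Prdx5 was no longer called in HCB versus control with library size alone (adjusted p = 0.0576 by edgeR). For Prdx5 in the combination versus atorvastatin, the same happened with library size alone (adjusted p = 0.109 by edgeR). Txnip was no longer called in HCB versus control without Control replicate 2 (adjusted p = 0.0754 by edgeR). Gstp3 was no longer called in HCB versus control without Control replicate 1 (adjusted p = 0.086 by edgeR) or the 2 libraries with most reads outside exons (0.0544). For Gstp3 in the combination versus atorvastatin, the same happened without Atorvastatin replicate 1 (adjusted p = 0.119 by edgeR), combination replicate 2 (0.22), the 2 libraries with most reads outside exons (0.166) or with the 4 libraries compared alone (0.0705).

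With atorvastatin, alone or on top of HCB, none of the 38 genes was called by edgeR's test. In atorvastatin versus control 0 of 38 genes were called, where 0% of all genes tested were called, and 0 had an unadjusted p under 0.05 (181 of all genes). In the combination versus HCB 0 were called, again against 0% of all genes, and 1 had an unadjusted p under 0.05 (857 of all genes). The same held for the average effect of atorvastatin and for the interaction, which asks whether the HCB difference depended on atorvastatin, with 0 called and 1 gene under an unadjusted 0.05 in each. DESeq2 called 0, 1, 0 and 0 of the 38 genes in these 4 tests, and of all genes 3 higher and 0 lower in atorvastatin versus control and 26 higher and 21 lower in the combination versus HCB. The median log2 change of the 38 genes was −0.06 in atorvastatin versus control and −0.02 in the combination versus HCB, and single genes ranged from −0.34 to 0.90 and from −0.53 to 1.22. The median standard error was 0.31 in each, and the 95% intervals bounded single genes loosely. For Nfe2l2 the 95% interval of the log2 change was −0.39 to 0.64 in atorvastatin versus control and −0.06 to 0.97 in the combination versus HCB. For Gclm it was −0.73 to 0.61 and −1.01 to 0.32. For Gstp1 it was −0.87 to 0.53 and −0.76 to 0.65.

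The gene under an unadjusted 0.05 in the combination versus HCB, in the average effect and in the interaction was Gstt3, named here after its values were seen. Its library values, given with the theta class, were nearly equal in control and atorvastatin and higher in both combination libraries than in both HCB libraries. The log2 change in the combination versus HCB was 1.22 ± 0.26 (SE, adjusted p = 0.553 by edgeR), with a 95% interval of 0.65 to 1.79. In atorvastatin versus control it was −0.03 ± 0.26 (SE, adjusted p = 1 by edgeR), with an interval of −0.60 to 0.54. The interaction was 1.25 ± 0.36 (SE, adjusted p = 1 by edgeR). DESeq2 called the change in the combination versus HCB (adjusted p = 0.0132), as did edgeR with no filter on low counts (adjusted p = 0.00627), while its edgeR adjusted p under the other alternatives lay between 0.132 and 1.

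**Figure D5:**
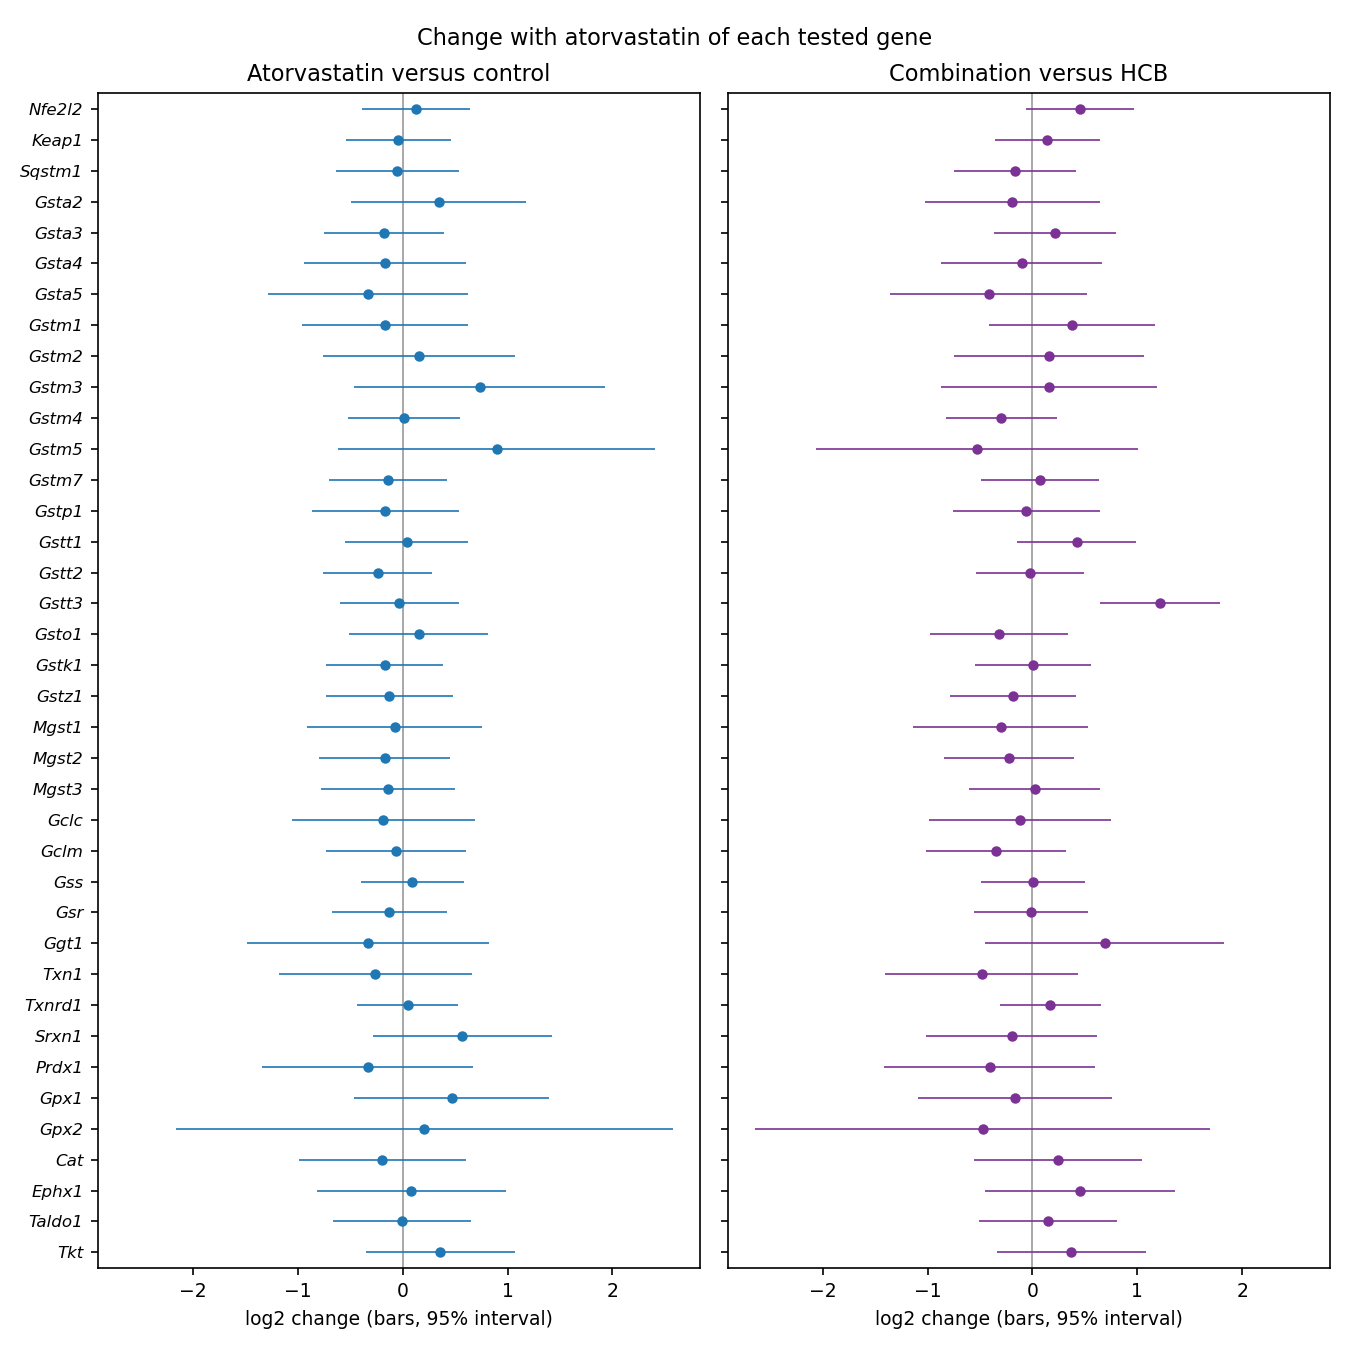
Log2 change of each tested gene with atorvastatin, against control (left) and on top of HCB (right), with bars for the 95% interval. The bar of Gstt3 on the right runs from 0.65 to 1.79, and every other bar crosses 0.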

How the data were processed

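Per the file headers, the authors counted reads over exons with featureCounts 2.0.6 and Ensembl release 111 (build mRatBN7.2), in paired-end mode without chimeric pairs, with no option for strand, multimapping reads or counting pairs as 1. The deposited values are raw counts, and both mates of a pair appear to be counted, since all reads come to 508 M, 2.04 times the 249 M stated. Reads with more than 1 alignment, 10.4% to 21.0% of all reads per library, were left unassigned. So were reads over exons of more than 1 gene, 2.24% to 4.02%. Per the submitters' processing notes, fastp 0.23.4, STAR 2.7.10b and DESeq2 1.42.1 in R 4.3.2 were used. From these counts, edgeR 4.0.16 in R 4.3.3 fitted 1 model of 4 groups (filterByExpr, TMM, robust quasi-likelihood, 4 residual degrees of freedom, biological coefficient of variation 0.295), with Benjamini-Hochberg adjustment over 16591 genes and a threshold of 0.05. All comparisons share this estimate of the spread. An exact permutation test of 2 against 2 libraries cannot go below 0.333. CPM values use the TMM-scaled library size, and between genes they are divided by exon length in kb. Standard errors come from the F statistic, and the 95% intervals use the total degrees of freedom of the test. These exceed the 4 residual ones, since the test borrows information on the spread across genes. The labels give no batch, and 0 columns were left out.

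The members and lists were chosen with earlier results of these data known. Values in every library are given for genes called alike in both HCB comparisons with a log2 change of at least 1 in size in both, and for Nfe2l2, Keap1, Gclc, Gclm, Gstp1, Gpx2, Ggt1, Txnrd1 and Srxn1. From each list of other genes up to 3 called genes per direction with the smallest p in HCB versus control are named, with Nqo1 and Hmox1. A further gene that this rule selects is not reported here. Alternatives were DESeq2 1.42.0, its size factors, other filters (none, or 1 CPM in 2 libraries), a replicate block, the compared libraries alone, halved counts, libraries left out and, chosen after seeing the data, library size alone. Python 3.11.15 with pandas 2.3.3 searched promoters, matplotlib 3.10.9 plotted, and the R package data.table (version 1.17.8) read tables.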

Additional observations from a re-analysis of the deposited data

How the results depend on the processing

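The count of genes called higher in HCB versus control was 29, and 18 without the 2 libraries with the most reads outside exons (Control replicate 1 and Atorvastatin replicate 1). Leaving out each library in turn gave 18 to 30, with the lowest value when Control replicate 1 was dropped, and 890 to 2274 over all genes. For the combination versus atorvastatin the count of 27 became 17 without the same 2 libraries and 18 to 29 with each library left out, lowest without Atorvastatin replicate 1, and 1026 to 2387 over all genes. Without the 2 libraries, the counts over all genes fell as well, and 1 control and 1 atorvastatin library were left. The median log2 change of the 39 genes was then 1.31 in HCB versus control and 1.24 in the combination versus atorvastatin. Over all genes it was 0 and −0.059. In the combination versus atorvastatin, library size alone, chosen after seeing the data, gave 2 lower genes in place of 1. In the combination versus HCB, DESeq2 and no filter on low counts each called 1 gene higher in place of 0. Of the 30 genes called in HCB versus control 17 kept their call under every alternative, as did 16 of 28 in the combination versus atorvastatin, and none of the tests of single genes reversed a call. For the other genes of the pathway the count higher ranged from 16 to 34 and from 19 to 40, and the count lower from 5 to 10 and from 3 to 13. How many calls were kept over all genes was not counted, so these numbers are no result about these genes in particular. With a replicate block, 29 and 28 genes were called higher, 1 and 1 lower, and 0 in the atorvastatin comparisons. Libraries of the same number correlated at 0.269 between control and atorvastatin and at −0.051 to 0.054 between the other pairs of groups, so the numbers were not taken as pairs. The libraries of the compared groups alone could not be used for the interaction and the average effect, which need all 4 groups. With 2 libraries per group and 4 residual degrees of freedom, small changes may stay undetected, and genes with few reads (Gpx2, Ggt1, Slc7a11) were not resolved. Intervals do not cover reads left unassigned between near-identical copies or overlapping genes, nor reads of overlaps that only strand would tell apart.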
